A study of Cichorium intybus with 5 samples.

Results

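The response of embryogenic chicory leaf explants to the β-D-glucosyl Yariv reagent (β-Glc Y) was followed here over every array probe that has a value in the comparison of K59 explants cultured for 4 days with β-Glc Y (K59 d4 Y+) and K59 explants cultured for 4 days without it (K59 d4 Y-). This holds for 1201 of the 2112 probes of the array (56.9%). Of these probes, 124 carry a name in the study's table of 135 regulated genes and 1077 do not. Another 911 probes lack this value, of which 615 have no value in any comparison. The study states fewer unique genes than probes for its array. Several probes can therefore hold the same gene, and counts of probes below are not counts of distinct transcripts.

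K59 is an embryogenic genotype of Cichorium intybus from the landrace Koospol, and C15 is a non-embryogenic genotype obtained by selfing K59, so that each genotype is represented by a single plant line. Leaf explants of 2-month-old in vitro plantlets, 12 plants per replica, were shaken in the dark at 35 °C in medium that induces somatic embryogenesis (SE), for 4 days, with 250 µM β-Glc Y (Y+) or with none (Y-). The same treatment was given to C15 (C15 d4 Y+ against C15 d4 Y-), and the array series also holds K59 d4 Y- against K59 d0, C15 d4 Y- against C15 d0, and K59 d0 against C15 d0, where d0 explants had not been cultured. No Yariv reagent that leaves its target unbound was included as a control compound, so binding of arabinogalactan-proteins and any other action of the reagent cannot be told apart. Each measurement is the log2 ratio of 2 RNA samples hybridized to a spotted cDNA clone, with 1 deposited value per probe and comparison. No spread between replicates can therefore be given, no test was made, and every count below is of values past a size. The ratios hold no level of expression, so the leaf identity of the explants could not be checked against marker genes, and in RNA from whole explants fewer cells of a type and less RNA per cell cannot be told apart.

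Arabinogalactan-proteins (AGPs) are heavily glycosylated proteins of the cell wall and the plasma membrane, many of them held to the membrane by a lipid anchor. β-Glc Y binds and aggregates them, and it is used to disturb their function in pollen tubes, cell cultures and embryogenic tissue. In SE, somatic cells are first reactivated, re-enter division and then form embryos without fertilization. The comparison asks which transcripts differ between embryogenic explants cultured with and without a reagent that binds AGPs.

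Most probes differed little between K59 Y+ and K59 Y-. The median log2 ratio was 0, with a spread over probes of 0.22 (median absolute deviation scaled to the SD of a normal distribution). The log2 ratio lay within 0.5 of 0 for 1083 probes (90.2%) and within 0.25 for 815 probes (67.9%). The 5th and 95th percentiles were -0.67 and 0.42, and 594 probes lay below 0, 569 above 0 and 38 at 0.00. A log2 ratio of 1 in size, a change by a factor of 2, is the filter used in the study's methods. At or below -1 there were 24 probes (2.00% of 1201) and at or above 1 there were 7 (0.583%). Among the 124 named genes 11 were at or below -1 and 6 at or above 1, and among the 1077 unnamed probes 13 were at or below -1 and 1 at or above 1. The named genes are not a neutral sample, since the study chose them on these arrays, 11 of them for their response to β-Glc Y. For 12 named genes with K59 values of at least 0.5 in size, all of them low here, the study's own gene table has the opposite sign, and which sign is right could not be settled from the sources used here. They are HyPRP, the extensin-related protein, UBC9, amino acid permease 6, the RNA helicase of superfamily II, MT1, ATP citrate lyase and the nuclear receptor at or below -0.75, and heat shock protein cognate 70, RNA binding protein A, salt tolerance protein 5 and ribosomal protein S17 nearer to 0. Without them, 6 named genes were at or below -1 in place of 11, and 11 at or below -0.75 in place of 19. For MT1 the study also reports a check by quantitative RT-PCR, given below.

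The tails were unlike each other in shape. Between -0.5 and -0.75 lay 15 probes, against 27 in the mirror range from 0.5 up to 0.75. Further out the order turned, with 35 probes at or below -0.75 and above -1, against 10 from 0.75 up to 1. In all, 59 probes lay at or below -0.75 (4.91% of 1201) and 17 at or above 0.75. The 59 probes sat closely around a median of -0.95 with a spread of 0.10, and the next probe above them had -0.68. In the deposited values they form a separate small peak on the low side of the distribution that has no counterpart on the high side. Of the 59, 19 are named, and 8 of these 19 have a sign in conflict with the study's gene table. The other 40 are unnamed, so their signs could not be compared. Whether the peak is as one-sided as the deposited values show is therefore not settled.

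**Figure D1:**
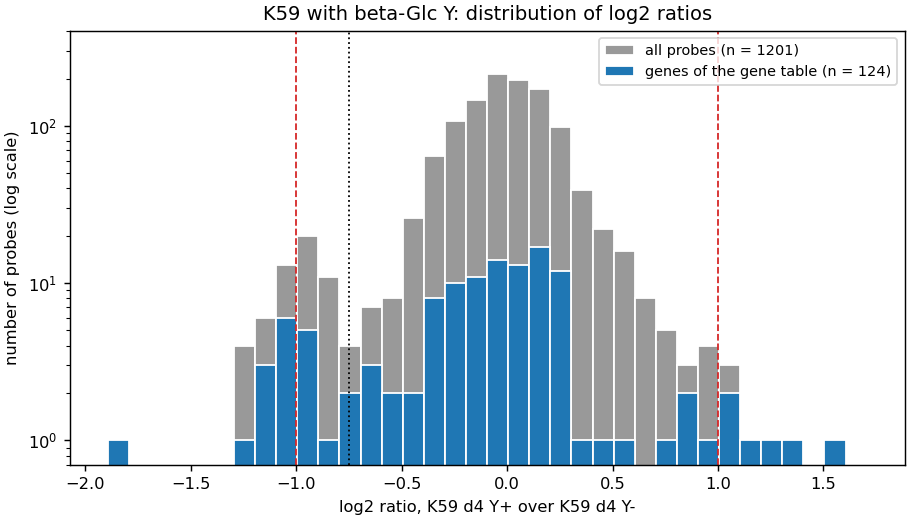
Number of probes (log scale) by log2 ratio of K59 d4 Y+ over K59 d4 Y-, in bins of equal width, for all 1201 probes (grey) and for the 124 named genes (blue). Dashed lines mark -1 and 1 and the dotted line marks -0.75. A small separate peak of 59 probes, 8 of them named genes of conflicting sign, lies at or below -0.75. At or above 0.75 lie 17 probes.

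The probes nearest the threshold show how finely it divides them. On the low side GAPDH (clone E002A3) and the unnamed clones N101A6 and N104A1 stood at exactly -1, and the next values were -0.98 for clone E017C2 and -0.97 for metallothionein 1. On the high side LBD41 with 1.02 lay just inside and a protein kinase family protein (clone E001C5) with 0.99 and clone E010G1 with 0.96 just outside. The deposited values have 2 decimals. Whether the members on either side of the threshold differ cannot be said without replicate values.

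Cell wall and extracellular proteins held both ends of the distribution. A putative AGP (clone E005B11) had the lowest log2 ratio of all 1201 probes, -1.81. Its signal was 3.51-fold lower in K59 Y+ than in K59 Y-. The reagent binds AGPs, but its binding to this protein was not examined here. The paper states that this was the only AGP-like gene on the array, included because quantitative RT-PCR had already shown its differential expression. The extracellular dermal glycoprotein (EDGP, clone E010H12), a secreted protein first described in carrot, had the highest log2 ratio, 1.54, a 2.91-fold higher signal. Of the 16 genes of this group with a value, 3 were at or below -1 and 1 at or above 1, with a median of -0.09 against 0 over all probes.

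After the AGP followed a hybrid proline-rich protein (HyPRP, clone E007E2) with -1.17 and an extensin-related protein (clone E001A11) with -1.08, both of classes of proline-rich wall proteins, and a mucin-like protein (clone E012B9) with -0.89. The signs of HyPRP and the extensin-related protein are among those in conflict. On the high side the polygalacturonase inhibiting protein (PGIP, clone E012E7), which blocks pectin-degrading enzymes of fungi, had 0.87. Of the other members, an expansin (clone E017D6) had -0.11, expansin 2 (clone E011A7) 0.04, an endoxyloglucan transferase (clone E004D1) 0.00, a polygalacturonase (clone E012H2) -0.07 and a pectinesterase (clone E007B4) 0.07. Clones called glycine-rich protein did not lie together, with -0.29 for E017F4 and 0.53 for E015F12.

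The pair of lipid transfer proteins, small secreted proteins that carry lipids, lay side by side. SDI-9 (clone E009A6), named after a sunflower gene, had -1.09, and DEA1 (clone E002A7), named after a tomato gene, had -1.08. The list has 2 members, so its median of -1.09 says no more than these values.

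Genes of protein degradation stood on both sides. The ubiquitin and proteasome pathway tags proteins with ubiquitin through E1, E2 and E3 enzymes, and the 26S proteasome, a 20S core with a 19S cap, unfolds and cleaves them. RPT6 (26S proteasome AAA ATPase subunit 6, clone E001E6), an ATPase of the cap, had -1.29, the lowest value after the AGP. RPT5a (clone E017E4), another ATPase of the cap, had -0.20, and PAB1 (20S proteasome alpha subunit B, clone N102E10), a subunit of the core, had 1.25. These 3 subunits of 1 complex thus spanned most of the range of the comparison. The E2 enzyme UBC9 (clone E015H1) had -1.10 and another E2 (clone E010G5) 0.14. Over the 13 genes, 2 were at or below -1 and 1 at or above 1. All probes had 2.00% and 0.583% in these ranges, and the 124 named genes 8.87% and 4.84%. The sign of UBC9, 1 of the 2 low genes, is among those in conflict. The share of 8.87% rests on 11 named genes, 5 of them of conflicting sign. Of the 13, 11 lay below 0 and 2 above 0, against 63 below and 55 above 0 over the named genes, and the median was -0.25. RING finger proteins, the type of most plant E3 enzymes, ranged from -0.36 (clone E017B3) to -0.22 (clone E017D8), and the polyubiquitin clones had -0.31 (N102D1) and -0.24 (E017D10). Of these 13 genes, 5 are on plate E017, whose median over all its probes was -0.25, and these 5 lay between -0.36 and -0.20. Subtracting the median of each plate moved the median of the list to -0.04. The other 8 genes had a median of -0.25, with 6 below 0.

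Defence, wound and protease inhibitor proteins also lay at both ends. The protease inhibitor PI2 (clone N101E12) had 1.13, whereas another protease inhibitor, of the serine-type endopeptidase class (clone E017B9), had -1.09. Snakin 2 (SN2, clone N104F11), an antimicrobial peptide known from potato, had -0.91. Polyphenol oxidase (clone E017A6) and defensin SD2 (clone N102D12) both had -0.32, a wound-responsive protein (clone E017H3) had -0.39, and VSP (clone N101E4), named after vegetative storage proteins, had 0.12. The median of the 7 genes was -0.32, and -0.14 after the plate medians were subtracted, 3 of the 7 being on plate E017.

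Metabolism and energy genes were near 0 apart from 3. HMG-CoA reductase (clone E011F11), which makes mevalonate for sterols and other isoprenoids, had the second highest value of all probes, 1.31. GAPDH (clone E002A3) of glycolysis had -1, but the clone called cytosolic GAPDH (E005C9) had -0.07. ATP citrate lyase (clone N104B10), which supplies acetyl-CoA in the cytosol, had -0.91. The other 13 of the 16 genes lay between -0.32 for myo-inositol-1-phosphate synthase (clone E017B10) and 0.45 for dihydroflavonol reductase (clone E001H2), an enzyme of anthocyanin synthesis. The median of the group was 0.075, with 1 gene at or above 1 and 1 at or below -1.

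Redox and metal binding genes had a median of 0.025, with none of 10 past the threshold. Metallothionein 1 (MT1, clone N104E6), a small metal-binding protein, had -0.97, below 0 and so of the sign opposite to the one the study draws for it. The paper reports MT1 as raised by β-Glc Y in both genotypes. MT1 is among the genes it checked by quantitative RT-PCR, and it reports no significant difference between that method and the arrays. The quantitative RT-PCR values were not examined here. A quinone reductase (clone E017C3) had -0.77, while another clone of the same name (E006H4) had 0.11. The peroxidase similar to ATP24a (clone E002F2) had 0.88 and a second peroxidase clone (E013D3) 0.00. Cross-hybridization between related genes, or different genes under 1 name, was not tested for any of these pairs.

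In signalling and vesicle traffic, values past or close to the threshold lay on both sides of 0. AGD6 (clone E010G4), a GTPase-activating protein of ARF GTPases that act in vesicle budding, had 1.03, but ARF1 itself (clone E011E1) had 0.20 and the coat protein β-COP (clone E009D1) 0.17. The protein kinase family protein (clone E001C5) had 0.99 and ERD15 (clone N101H8), a dehydration-induced protein, had 0.74. Remorin (clone N104B1), a plasma membrane protein of lipid nanodomains, had -0.95, and a clone named nuclear receptor (E002E12) had -0.93. Calmodulin (clone E004F10), the calcium sensor, had 0.10 and a receptor-like kinase (clone N103A5) -0.15. The median over 13 genes was 0.10.

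Among transcription, chromatin and RNA genes LBD41 (clone E012F12), a plant-specific LOB-domain transcription factor, had 1.02 and an RNA helicase of superfamily II (clone N102G9) had -1.02. A DEAH-box RNA helicase (clone E006F5) had -0.10, and RNA binding protein A (clone E010F6) had -0.66. The other 6 genes of the 10 lay between -0.28 and 0.28, among them NAM 1 (clone E002E2), of the NAC family of transcription factors, with 0.16. In membrane transport, amino acid permease 6 (clone E002B7), an importer of amino acids, had -1.14 and the voltage-dependent anion channel (clone E010D10), the pore of the outer mitochondrial membrane, had -0.75. The other 4 genes with a value lay between -0.09 and 0.16. They include clones of 2 MIP family proteins, the family of aquaporins, with -0.09 (E001G4) and 0.07 (E014D12). The signs of the RNA helicase of superfamily II, RNA binding protein A and the amino acid permease are among those in conflict.

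The translation, photosynthesis, cell cycle and chaperone lists held no member past the threshold among 31 genes. Past it in either direction were 2.58% of all probes and 13.7% of all named genes, and the difference from these shares was not tested. The 12 translation genes lay between -0.50 (40S ribosomal protein S17, clone N104E11) and 0.29 (poly(A)-binding protein, clone E006G5), with 6 above and 6 below 0 and a median of 0.08. The 6 photosynthesis genes lay between -0.26 and 0.27 with a median of 0.17, and both ends were clones of the RuBisCO small subunit, N104E4 and E007F11. The 7 cell cycle and cytoskeleton genes had a median of 0, with the replication licensing factor MCM3 (clone E016H3) at 0.07, kinesin 10 (clone E016B4) and beta tubulin (clone E011C12) at 0.00, and the lowest, salt tolerance protein 5 (clone E016C9), at -0.67. The 6 chaperones had a median of -0.155 and ran between -0.63 for heat shock protein cognate 70 (clone E016H11) and 0.18 for heat shock protein 70 (clone E012D5).

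**Figure D2:**
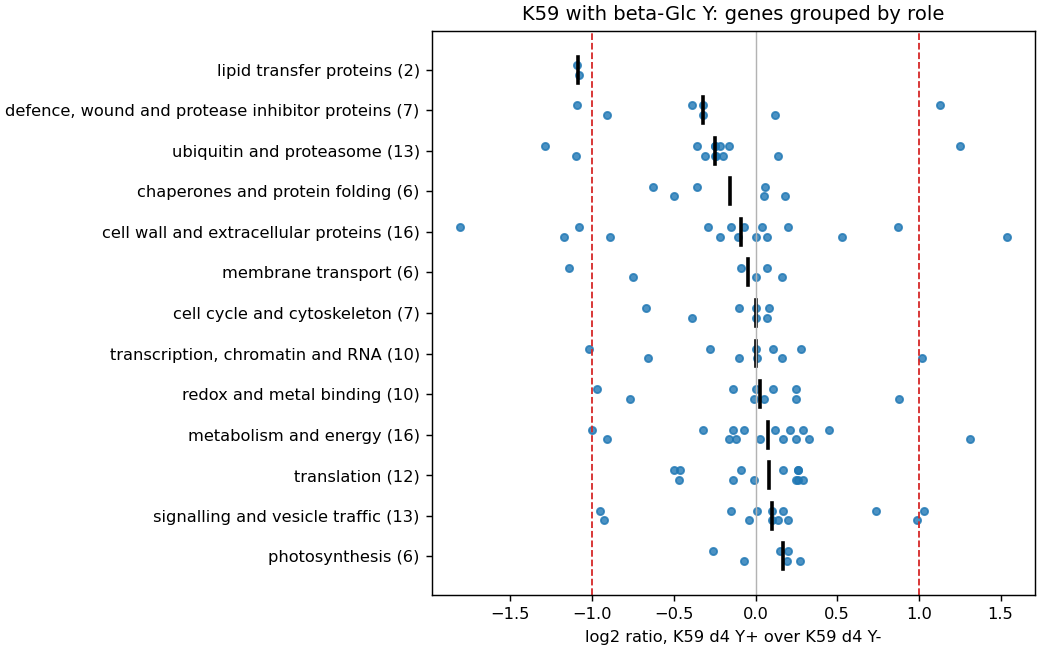
Log2 ratio of K59 d4 Y+ over K59 d4 Y- for each of the 124 named genes (points), in 13 groups by role with the number of genes in parentheses; black bars are group medians and dashed lines mark -1 and 1. The points past the lines are a minority of each group, in groups with medians between -0.32 and 0.10, except for the 2 lipid transfer proteins with a median of -1.09.

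For 11 genes of the study's table the K59 comparison has no value. They include phenylalanine ammonia lyase (clone E003G7), the entry enzyme of phenylpropanoid synthesis, ACC oxidase (clone N104E3) of ethylene synthesis, the sucrose transporter SUT1 (clone E001F2), a 14-3-3 protein (clone E010A10) and histone H2A (clone A025C4). Nothing can therefore be said of the K59 response of these 11, although the C15 comparison does have a value for 10 of them.

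Outside the named genes, 13 clones had log2 ratios between -1.27 and -1. The lowest were E014E10 with -1.27, E016D3 with -1.21, E001D1 with -1.20 and E014D8 with -1.13. On the high side the unnamed clone E014G3 had 1.04, followed by E010G1 with 0.96 and by E016A6 and E001G8, both with 0.93. Their gene names were not at hand.

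The K59 values were then set beside those of the non-embryogenic C15. The C15 comparison rests on other RNA, has a value for 1260 probes and a spread of 0.21. It had 48 probes at or below -1 (3.81%) and 13 at or above 1 (1.03%). All 31 probes past the threshold in K59 had a value in C15, and all 31 had the same sign there. Over the 986 probes with non-zero values in both genotypes, 716 (72.6%) had the same sign. Of the 31, 5 are named genes whose K59 sign is in conflict with the study's gene table, and 14 are unnamed and could not be compared with it. C15 signs were not compared. Of the 24 probes at or below -1 in K59, 18 were at or below -1 in C15, and of the 7 at or above 1 in K59, 6 were at or above 1 in C15.

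The 7 probes at or above 1 in K59 had values close to equal in the genotypes. EDGP had 1.54 in K59 and 1.56 in C15, and PI2 had 1.13 in K59 and 1.14 in C15. For HMG-CoA reductase the K59 value was 1.31 and the C15 value 1.40. PAB1 had 1.25 in K59 and 1.06 in C15. The median difference, K59 minus C15, over these 7 probes was -0.02. Of the 17 probes at or above 0.75 in K59, 16 had a C15 value and 13 of these were also at or above 0.75 in C15. These probes were chosen by their K59 value, and some probes above 1 in C15 were far lower in K59. E004A6 had 0.21 in K59 and 1.03 in C15, E014B5 0.30 in K59 and 1.12 in C15, and N101A11 0.36 in K59 and 1.15 in C15.

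Probes with low K59 values were less alike in size between the genotypes. RPT6 had -1.29 in K59 and -1.89 in C15, the amino acid permease -1.14 in K59 and -1.51 in C15, and GAPDH -1 in K59 and -1.47 in C15. The nuclear receptor had -0.93 in K59 and -1.62 in C15, and remorin -0.95 in K59 and -1.43 in C15. The reverse order held for the AGP, with -1.81 in K59 and -1.05 in C15, for UBC9, with -1.10 in K59 and -0.84 in C15, and for the endopeptidase inhibitor, with -1.09 in K59 and -0.60 in C15. DEA1 was alike with -1.08 in K59 and -1.09 in C15, as was MT1 with -0.97 in both. The K59 signs of the amino acid permease, the nuclear receptor, UBC9 and MT1 are among those in conflict with the study's gene table. Of the 24 probes at or below -1 in K59, 16 were lower still in C15 and 8 were higher in C15.

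**Figure D3:**
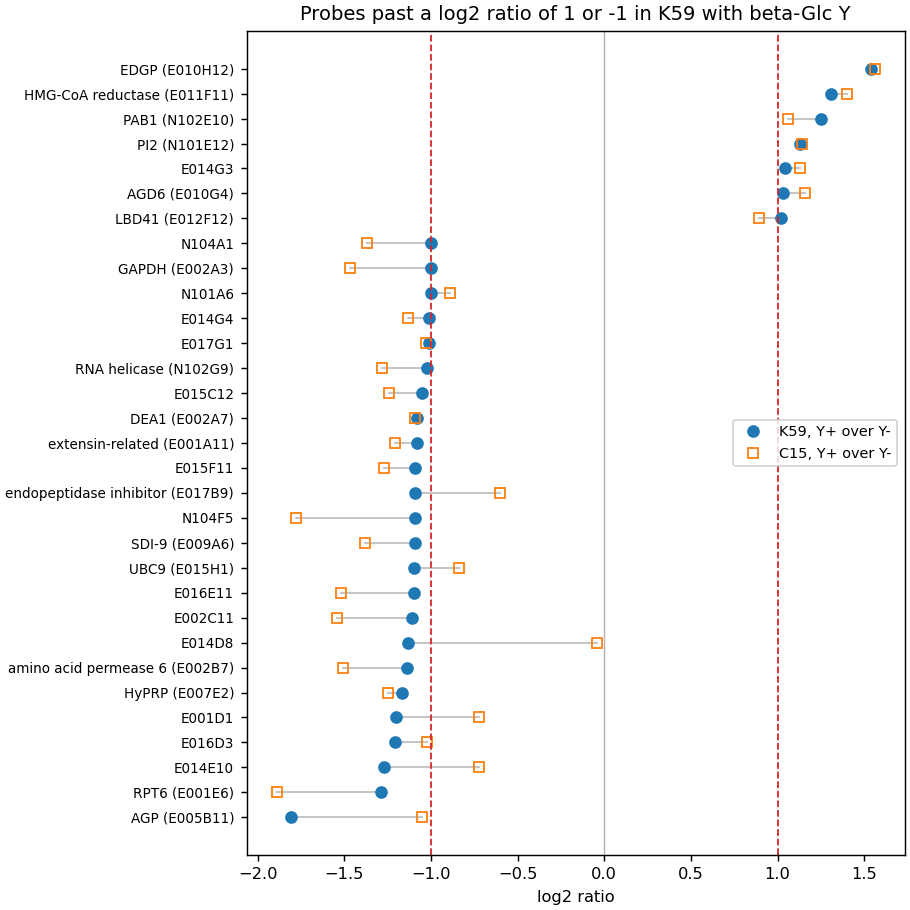
Log2 ratio of Y+ over Y- in K59 (filled circles) and C15 (open squares) for the 31 probes at or beyond 1 or -1 in K59, with gene name and clone where the gene is named. The 7 probes at the top nearly coincide in the genotypes, whereas 16 of the 24 low probes are lower in C15 and the AGP and clone E014D8 are lower in K59.

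The separate low peak seen in the deposited K59 values was present in those of C15 as well, whose signs were not compared with the study's gene table. In C15 60 probes lay at or below -0.75 (4.76%). Of the 59 K59 probes, 54 were at or below -0.75 in C15 (91.5%), and these 54 are 96.4% of the 56 such C15 probes that have a K59 value. The peak lay nearer to 0 in K59, with a median of -0.95 (spread 0.10), than in C15, with a median of -1.25 (spread 0.24) over the same 59 probes. Of these, 48 were lower in C15, 10 were lower in K59 and 1 was equal. Over all 1044 probes with both values the median difference was 0.01 (spread 0.19), and over the 59 it was 0.33. Choosing the 59 by their K59 value fixes in part how far they can lie from it, and the difference was not tested.

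The 5 probes at or below -0.75 in K59 and not in C15 were the clones E014E10 (-1.27 in K59 and -0.72 in C15), E001D1 (-1.20 in K59 and -0.72 in C15), E014D8 (-1.13 in K59 and -0.04 in C15) and N101G5 (-0.86 in K59 and 0.03 in C15), and the endopeptidase inhibitor. E014D8 and N101G5 are thus near 0 in C15. In the other direction stood E016C1 (-0.44 in K59 and -1.03 in C15) and N102B10 (-0.12 in K59 and -0.98 in C15).

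Few probes differed between the genotypes by much. The K59 and C15 log2 ratios differed by at least 0.5 for 62 of the 1044 probes, with K59 higher for 30 and lower for 32, and by at least 1 for 2 probes. Those 2 were E014D8, with a difference of -1.09, and E009H4, which had 0.00 in K59 and 1.07 in C15 (difference -1.07). Next on that side were N103A8, with 0.03 in K59 and 0.93 in C15, N101G5, and E017F12, with -0.06 in K59 and 0.77 in C15. The largest positive differences were those of E017D9, with 0.69 in K59 and -0.22 in C15, and E010B10, with 0.70 in K59 and -0.20 in C15. None of these clones has a name in the study's table.

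Among the named genes, 11 of 124 differed by at least 0.5, 5 with K59 higher and 6 with K59 lower. Heat shock protein cognate 70, a constitutive chaperone, had -0.63 in K59 and 0.19 in C15, but its K59 sign is in conflict with the study's gene table. Elongation factor 1 alpha (clone E001D9) had -0.46 in K59 and 0.06 in C15, and calmodulin 0.10 in K59 and 0.62 in C15. CP12 (clone E003D4), a regulator of the Calvin cycle, had -0.07 in K59 and 0.48 in C15. Dihydroflavonol reductase ran the other way, with 0.45 in K59 and -0.33 in C15, as did ERD15, with 0.74 in K59 and 0.19 in C15. Apart from the AGP, RPT6 and the nuclear receptor, the members that differed this much lay within the threshold in both genotypes. The K59 sign of the nuclear receptor is also in conflict, and C15 signs were not compared with the study's gene table.

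**Figure D4:**
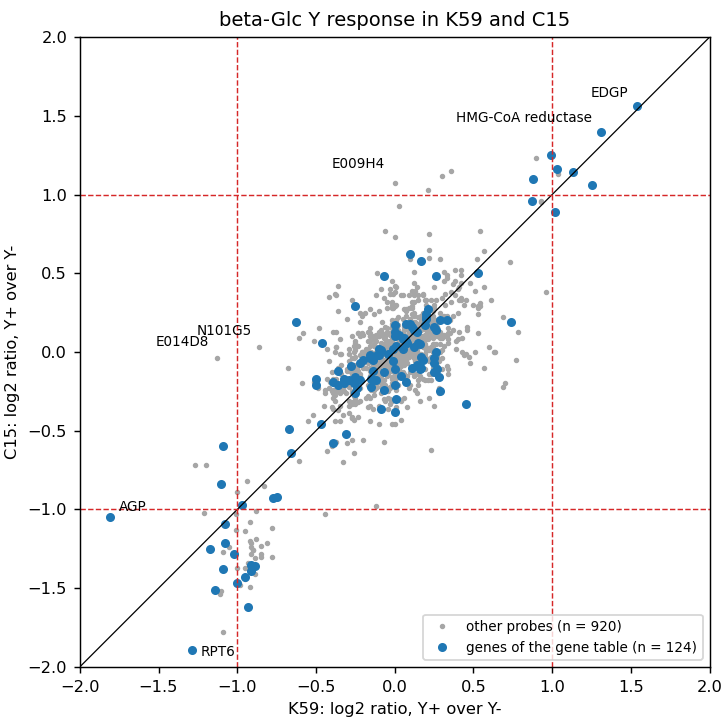
Log2 ratio of Y+ over Y- in K59 (horizontal) and in C15 (vertical) for the 1044 probes with both values, named genes in blue; the diagonal marks equal values and dashed lines mark -1 and 1. The low cluster of 59 probes lies mostly under the diagonal, with 48 lower in C15, while the AGP and clones E014D8 and N101G5 lie above it.

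The same probes can be followed through SE induction, in which explants after 4 days without reagent (d4) were compared with explants at d0. K59 d4 Y- explants enter both the β-Glc Y comparison and the K59 induction comparison, on opposite sides of the ratio, so these values are only set side by side. The AGP had -1.81 with β-Glc Y and 1.55 at d4 against d0 in K59. RPT6 had -1.29 with β-Glc Y and 1.23 on induction, the amino acid permease -1.14 and 1.12, and the RNA helicase -1.02 and 1.37, in the same order. Other genes with low β-Glc Y values had negative induction values in K59, with -3.70 for the extensin-related protein, -3.42 for UBC9, -1.45 for SDI-9, -1.26 for HyPRP and -2.88 for MT1. Of the genes in these sentences, the amino acid permease, the RNA helicase, the extensin-related protein, UBC9, HyPRP and MT1 have a β-Glc Y sign in conflict with the study's gene table, so their pairing of values holds for the deposited table only. DEA1 with -0.28, the endopeptidase inhibitor with -0.03 and GAPDH with 0.45 were within the threshold on induction. Of the high genes, HMG-CoA reductase had -2.05 on induction in K59, PAB1 0.84, LBD41 0.57 and AGD6 -0.39, whereas EDGP, PI2 and the protein kinase have no K59 induction value.

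Over the 59 probes of the low peak, a K59 induction value exists for 56, of which 12 were at or above 1, 19 at or below -1 and 25 in between. Over the 769 of the 1201 probes that have both values, 18.6% were at or above 1 and 21.3% at or below -1. In C15, where no RNA is shared with the K59 β-Glc Y comparison, all 59 have an induction value, 5 at or above 1, 12 at or below -1 and 42 in between. There the shares over 980 probes were 1.73% at or above 1 and 8.37% at or below -1. These differences from the background were not tested.

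Within the low peak, probes with a large ratio between K59 d0 and C15 d0 stood somewhat apart. The direction of the d0 ratio is not settled by the sources used here, so only its size was used. The paper reports no significant difference in expression between the genotypes at d0. No test was made here, so a large d0 ratio below is the size of a deposited value only. Of the 474 probes with both a K59 β-Glc Y and a d0 value, 37 had a d0 ratio of at least 1 in size (7.81%). Among the low probes this was so for 10 of 54 (18.5%), none of them named. Counted the other way, 10 of the 37 probes with a large d0 ratio (27.0%) lay in the low peak, against 44 of the 437 others (10.1%). A d0 value exists for 54 of the 59 low probes but for only 474 of all 1201, so these shares are not shares of all probes. The d0 ratios of the 10 probes had sizes between 1 and 2.62, the highest that of clone E005A4. Their K59 β-Glc Y median was -1.01 and their C15 median -1.055, with a median difference of 0.07. The other 44 had -0.95 in K59 and -1.28 in C15, with a median difference of 0.37, and 19 of them were named. In K59 induction all 10 were at or below -1 (-4.92 to -1.69), and in C15 induction 7 of the 10 were. This is close to all 37 probes with a large d0 ratio, of which 31 (83.8%) were at or below -1 in K59 induction and 24 (64.9%) in C15 induction. Of the 44, 43 had a K59 induction value, 7 of them at or below -1, 12 at or above 1 and 24 in between. The d0 values share RNA with both induction comparisons and with neither β-Glc Y comparison. These probes were grouped after their values were seen, and a d0 ratio of exactly 0.00 is listed for several named genes, such as the AGP and DEA1.

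**Figure D5:**
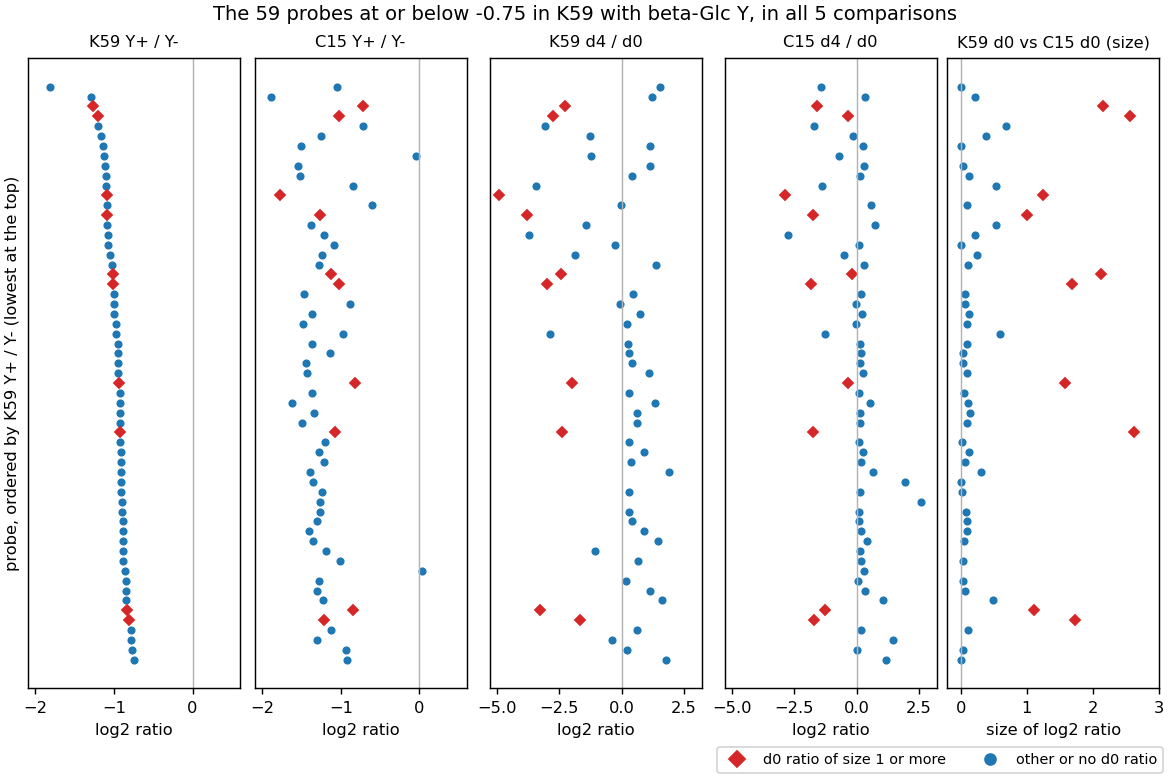
Log2 ratios of the 59 probes at or below -0.75 in K59 with β-Glc Y (1 row per probe, lowest at the top) in each of the 5 comparisons; the last panel shows the size of the d0 ratio without its sign. Red diamonds mark the 10 probes with a d0 ratio of at least 1 in size, all 10 of which are at or below -1 in K59 d4 against d0, as are 31 of the 37 probes with such a d0 ratio.

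The place of the probes on the clone plates was examined because the low values are so alike. The 59 low probes came from 17 of the 22 plates, and 32 of them from the plates E002, E016, E017 and N104, which hold 292 of the 1201 probes. Their share was 13.6% on E002 (8 of 59), 11.8% on E017 (11 of 93), 11.1% on N104 (6 of 54) and 8.14% on E016 (7 of 86). No low probe came from the plates A025, E004, E006, E008 and E013. Plate medians ran between -0.25 (E017) and 0.18 (E010). After subtracting them, 48 of the 59 stayed at or below -0.75, and 23 of the 31 probes past the threshold stayed past it, with 2 others joining them. The part of plate, clone source or cDNA length in these values was not tested.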

How the data were processed

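RNA of K59 leaf explants with (Cy5 in the labels) and without (Cy3) β-Glc Y was compared on 2-colour cDNA arrays. The deposited unit is the log2 ratio. Before deposit the authors discarded spots that were artefacts, saturated or of low signal, took median intensities less background, normalized by global lowess and by print-tip medians, and dropped probes with opposite results in the dye swap. The methods state 3 biological replicates and 6 hybridizations, which the table reduces to 1 value per probe; how is not stated. The study's FDR and SAM filters need the single hybridizations and were not repeated, and depth or intensity was not analysed here, so the precision of each value is unknown. Direction was taken from the labels and centring left as deposited.

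Probes at or beyond 1 or -1 were counted, with medians and scaled median absolute deviations (factor 1.4826), in Python 3.11.15 with numpy 2.4.6, pandas 2.3.3 and matplotlib 3.10.9. Gene names come from the study's gene table by clone, and of that table's values only the K59 β-Glc Y signs were compared. The 13 role lists and the members were chosen with earlier results of these data known, and the limit of -0.75 after the distribution was seen. Genes named are those of the gene table past the threshold, the 10 highest and 10 lowest probes, the 19 genes the study discusses for β-Glc Y, the ends of each list, the probes nearest the threshold, the 5 largest genotype differences each way and clones sharing a name; other genes of the lists were named after their values were seen. The counting was tested on simulated data of 2112 probes and recovered 7 of 7 planted values, which were counts and a list median. Alternatives were thresholds of 0.95, 0.75 and 1.5, median and plate-median centring, probes with all 5 values only, the C15 column scaled to the K59 spread, and means for medians. Leaving out the 12 genes of conflicting sign was chosen after seeing the data.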

Additional observations from a re-analysis of the deposited data

Results flagged for a closer look

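In 6 unnamed clones the K59 and C15 responses to β-Glc Y had opposite signs and were far apart. The difference, K59 minus C15, was -0.89 for N101G5 (-0.86 in K59 and 0.03 in C15) and -0.83 for E017F12 (-0.06 in K59 and 0.77 in C15). It was 0.91 for E017D9 (0.69 in K59 and -0.22 in C15), 0.90 for E010B10 (0.70 in K59 and -0.20 in C15), 0.85 for E002E4 (0.23 in K59 and -0.62 in C15) and 0.82 for A025G1 (0.77 in K59 and -0.05 in C15). Each genotype has 1 value per probe, so the difference was not tested, and each of the 6 clones has 1 value within 0.25 of 0.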

How the results depend on the processing

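Of 44 counts recomputed, 32 stayed within 1.5 times the value reported. These include settings that could not move a result. Subtracting the median of each column left every count and list median as it was, since the K59 and C15 medians were both 0. Scaling the C15 column to the K59 spread cannot alter a count that uses K59 alone. At a threshold of 0.75, 17 probes were up and 59 down, 19 named genes were down, and 67 probes passed in both genotypes in the same direction. At a threshold of 1.5, 1 probe was up and 1 down (EDGP and the AGP, both named), 1 passed in both genotypes and 1 in K59 only. With only probes that have all 5 values, 4 probes were up. Without the 12 genes of conflicting sign, chosen after seeing the data, 6 named genes were down in place of 11 and 19 probes in place of 24. The list median of membrane transport was -0.29 when the mean replaced it, and that of the ubiquitin and proteasome genes -0.04 after subtracting plate medians; the other 50 of 52 list medians moved by less than 0.193, the spread of the genotype difference over probes. No paired analysis was possible because each comparison has 1 value per probe and no replicate columns. No replicate could be left out for the same reason. Signal over background was not analysed here, so no limit from dim spots can be given.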
